A study of Mus musculus with 18 samples.

Results

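The 10 genes described here encode proteins of the hepatic acute phase response, the change in plasma proteins that the liver makes during inflammation. They are the serum amyloid A genes Saa1, Saa2, Saa3 and Saa4, Lcn2 (lipocalin 2), the orosomucoid genes Orm1 and Orm2, Hp (haptoglobin), Hpx (hemopexin) and Apcs (serum amyloid P component). They were taken by gene symbol, with the brightest probe set standing for a gene, and make up 10 of the 14691 genes tested, so that each of them passed the filter on dim probe sets. Liver RNA from C57BL/6 mice was measured on 18 Affymetrix Mouse Genome 430 2.0 arrays, 3 in each of 6 groups. The groups were AIM-KO (AIM-/-) on normal chow and WT (AIM+/+) on normal chow, then AIM-KO and WT after 12 weeks of a high-fat diet (HFD), and AIM-KO and WT after 20 weeks of HFD. AIM, the apoptosis inhibitor of macrophage, is a secreted protein of tissue macrophages, encoded by Cd5l. The comparisons ask how these genes differ with the diet and whether the difference depends on AIM. The labels call the arrays of a group biological replicates without saying that each is a separate animal, so p-values measure the spread between these arrays. No ages are given, and time on the diet and age cannot be told apart.

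Values are MAS5 intensities as deposited, and changes are differences of log2(intensity + 3.3) ± SE with 3 arrays in each group, tested with limma. The word called stands for an adjusted p under 0.05. Among hepatocyte transcripts Alb (albumin) read between 6139 and 11104 over the 18 arrays, and Ass1 (argininosuccinate synthase) between 30.1 and 218.8. Cd5l read 4 to 23.5 on the AIM-KO arrays and 702.6 to 1926.8 on the WT arrays. Xist, the transcript of the silenced X chromosome, read 2921.6 to 3049.7 on 4 arrays, all 3 of AIM-KO and replicate 2 of WT at 20 weeks, against 7.8 to 26.2 on the other 14 arrays. The labels give no sex. RNA integrity, read as the ratio of the 3' to the 5' actin control probe sets, averaged 2.51 ± 0.137 in AIM-KO and 3.47 ± 0.855 in WT at 20 weeks (SD, n = 3 each). High Xist goes with genotype at 20 weeks except for that 1 WT array. In AIM-KO livers all 3 arrays at 20 weeks had high Xist and no other AIM-KO array did. Within AIM-KO, high Xist therefore cannot be told apart from time on the diet. A term for it in the fit is set only by replicate 2 of WT at 20 weeks against the other arrays of that group. Values from that fit are given with the 20 week results below. The AIM-KO values among them are shifted by that WT difference, and do not separate the diet from high Xist.

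In mice the acute phase response is driven mainly by interleukin 6, acting through STAT3, and by interleukin 1 and TNF, acting through NF-kappa B, with C/EBP factors at many of the promoters. Its proteins divide by how far they can rise: Saa1, Saa2, Saa3, Lcn2 and the orosomucoids can be induced strongly, while Saa4, haptoglobin and hemopexin are made by the resting liver as well. Serum amyloid A rides on high density lipoprotein, lipocalin 2 withholds iron-loaded siderophores from bacteria, orosomucoids bind drugs and lipids in plasma, and haptoglobin and hemopexin carry free haemoglobin and haem to their scavenger receptors.

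The diet divided the 10 genes into 4 that rose and 6 that were called in no comparison. Saa1, Saa2, Lcn2 and Orm2 were higher at 12 weeks than on chow in AIM-KO livers, and the same 4 were higher at 12 weeks than on chow in WT livers. At 20 weeks all 4 were again higher than on chow in WT livers, and Saa2 and Lcn2 were in AIM-KO livers. Against this, 11.4% of all genes tested were called higher at 12 weeks in AIM-KO livers and 3.52% in WT livers, and at 20 weeks 4.29% in AIM-KO livers and 8.72% in WT livers. Counted in either direction, the shares of all genes were 18.1% for AIM-KO and 5.15% for WT at 12 weeks, and 6.96% for AIM-KO and 14.5% for WT at 20 weeks. No acute phase gene of the 10 was called lower than on chow. Of all genes, 6.78% in AIM-KO and 1.63% in WT livers were called lower at 12 weeks, and 2.67% in AIM-KO and 5.77% in WT livers at 20 weeks. The median change over the 10 was 0.05 in AIM-KO and 0.32 in WT livers at 12 weeks, with 0.04 and -0.00 over all genes, and 0.22 in AIM-KO and 0.31 in WT livers at 20 weeks, with 0.04 and -0.01 over all genes. The comparisons at 12 and 20 weeks within a genotype share their chow arrays, so they are given side by side. In bulk liver RNA, fewer cells of a type and less RNA per cell cannot be told apart.

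**Figure D1:**
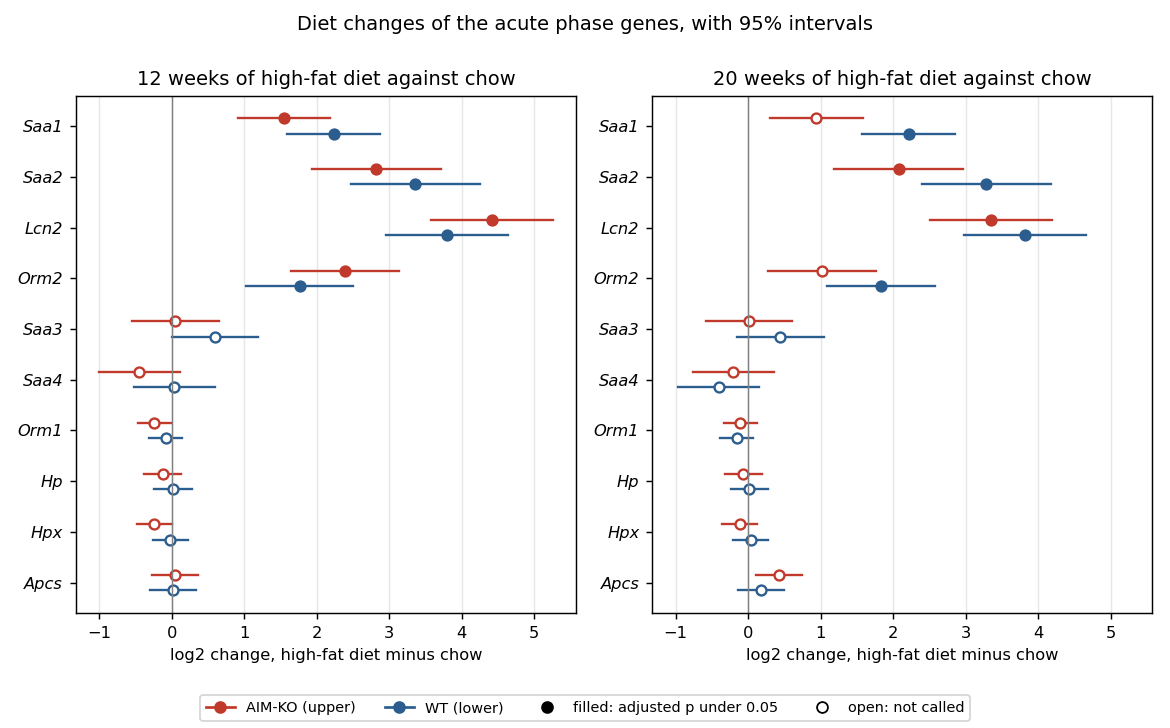
Log2 change of each of the 10 acute phase genes from chow to 12 weeks of HFD (left) and to 20 weeks of HFD (right), AIM-KO in the upper and WT in the lower line of each gene, with 95% intervals. Saa1, Saa2, Lcn2 and Orm2 lie to the right of 0 in all 4 comparisons, from 0.94 to 4.42, and no other gene of the 10 has a filled point.

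Lcn2 showed the largest log2 change of the 10 genes in each of the 4 comparisons with chow. Its intensity was 58.9, 43.2 and 42.6 on chow, 1114, 1131 and 1028 at 12 weeks and 578, 893 and 268 at 20 weeks in AIM-KO livers. In WT livers it was 50.5, 25.5 and 27.1 on chow, 769.9, 716 and 222 at 12 weeks and 449, 548 and 534 at 20 weeks. No HFD array of either genotype came down to the chow arrays, and the arrays of AIM-KO at 12 weeks lay close together, whereas 1 array in WT at 12 weeks (replicate 3) and 1 in AIM-KO at 20 weeks (replicate 3) lay well below the other 2 of its group. Lcn2 rose by 4.42 ± 0.40 in AIM-KO livers at 12 weeks (adjusted p = 1.4e-06) and by 3.79 ± 0.40 in WT livers (adjusted p = 2e-05). At 20 weeks the rise over chow was 3.35 ± 0.40 in AIM-KO livers (adjusted p = 4.2e-05) and 3.82 ± 0.40 in WT livers (adjusted p = 5.8e-06). With a term for high Xist the AIM-KO value was 3.19 ± 0.74 (adjusted p = 0.041). Ordered by mean, AIM-KO at 12 weeks (1091) stood above AIM-KO at 20 weeks (579), WT at 12 weeks (569) and WT at 20 weeks (510.4), with AIM-KO on chow (48.2) and WT on chow (34.4) below. Arrays of the 3 middle groups overlapped, as did those of the 2 chow groups.

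**Figure D2:**
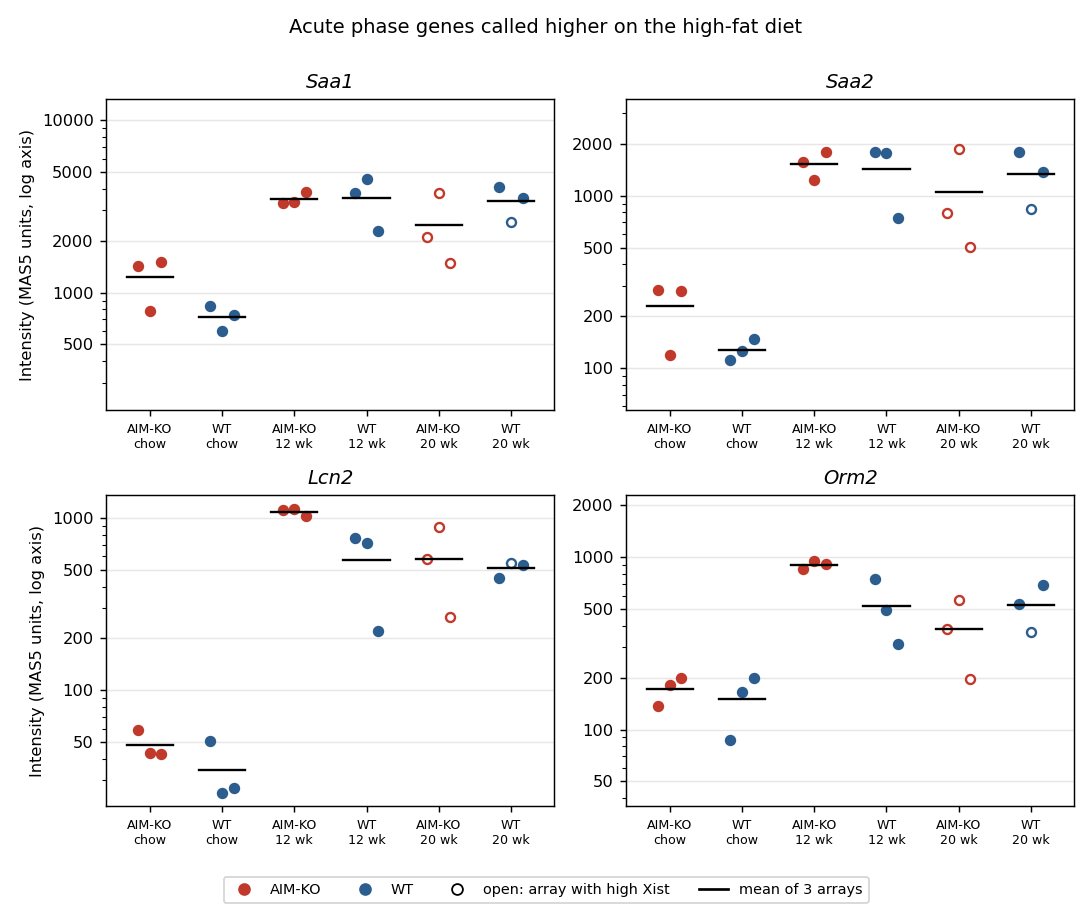
Intensity on each array (log axis with the same span in all panels) of Saa1, Saa2, Lcn2 and Orm2 in the 6 groups, with the mean of 3 arrays as a bar and open circles for arrays with high Xist. The HFD arrays of Lcn2 lie between 221.6 and 1131.2, all above the chow arrays at 25.5 to 58.9, and the third array of WT at 12 weeks and of AIM-KO at 20 weeks is the lowest of its group in all 4 panels.

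Saa1 and Saa2 encode the main serum amyloid A proteins of acute phase plasma. They are close copies that lie side by side on chromosome 7 and are read away from each other. To show how alike their control regions are, the stretch from 250 bases before to 50 bases after the start that the RefSeq promoter table uses (GRCm38.p6) is printed with that of Saa3, the inducible member of the same cluster that was called in no diet comparison. That start is also the start of the annotated gene for Saa2. It lies 201 bases inside the gene bounds for Saa1 and 3939 bases inside them for Saa3. The windows are chr7:46742931-46743230 on the minus strand for Saa1, chr7:46751583-46751882 on the plus strand for Saa2 and chr7:46715627-46715926 on the minus strand for Saa3. Capitals mark matches to the C/EBP motif TTNNGNAA on either strand, which 40.7% of the 32851 promoters in the table hold.
Saa1: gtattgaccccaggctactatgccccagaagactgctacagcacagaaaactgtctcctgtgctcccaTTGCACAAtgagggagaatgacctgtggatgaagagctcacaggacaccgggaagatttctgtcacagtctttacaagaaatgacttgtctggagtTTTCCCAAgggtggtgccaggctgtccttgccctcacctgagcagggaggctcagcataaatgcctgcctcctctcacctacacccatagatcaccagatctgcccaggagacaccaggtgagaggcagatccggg
Saa2: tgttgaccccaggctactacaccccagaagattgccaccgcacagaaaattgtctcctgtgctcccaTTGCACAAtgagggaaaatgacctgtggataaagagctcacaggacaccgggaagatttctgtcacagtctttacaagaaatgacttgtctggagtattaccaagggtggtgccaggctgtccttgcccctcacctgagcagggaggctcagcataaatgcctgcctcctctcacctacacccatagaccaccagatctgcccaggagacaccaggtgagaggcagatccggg
Saa3: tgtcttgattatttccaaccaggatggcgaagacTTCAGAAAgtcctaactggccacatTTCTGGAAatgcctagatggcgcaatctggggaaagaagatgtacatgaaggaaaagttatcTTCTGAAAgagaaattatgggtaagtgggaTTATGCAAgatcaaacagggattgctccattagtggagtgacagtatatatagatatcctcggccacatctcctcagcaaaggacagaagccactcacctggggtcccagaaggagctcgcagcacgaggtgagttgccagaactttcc
The Saa1 and Saa2 windows were identical at 287 of 301 aligned positions (95.3%), whereas Saa1 and Saa3 matched at 51.3% and Saa1 and Saa4 at 47.3%. Aligned in the same way, Saa1 matched Lcn2 at 54.2% and Hpx at 48%, so no likeness is read from the values of Saa3 and Saa4. Saa1 held 2 matches to the C/EBP motif, Saa2 held 1 and Saa3 held 4, and none of these windows held a match to the STAT3 motif TTCNNNGAA (8.3% of all promoters) or to the kappa B consensus (8.46%).

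Saa2 intensity was 284, 119 and 281 on chow, 1576, 1236 and 1792 at 12 weeks and 793, 1855 and 501 at 20 weeks in AIM-KO livers. The WT arrays read 111, 125 and 147 on chow, 1790.3, 1776 and 739.5 at 12 weeks and 1782, 832 and 1374 at 20 weeks. The HFD arrays of each genotype lay above its chow arrays, and at 20 weeks the AIM-KO arrays spread across the whole range of the HFD arrays. Saa2 rose by 2.82 ± 0.42 in AIM-KO livers at 12 weeks (adjusted p = 0.00017) and by 3.36 ± 0.42 in WT livers (adjusted p = 0.00011). At 20 weeks it was 2.08 ± 0.42 above chow in AIM-KO livers (adjusted p = 0.0052) and 3.29 ± 0.42 in WT livers (adjusted p = 4.6e-05). With a term for high Xist in the fit, the AIM-KO value at 20 weeks became 2.98 ± 0.74 (adjusted p = 0.055), and the call was lost.

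Saa1 followed the same pattern with smaller log2 changes. Its intensity was 1420.3, 783 and 1509 on chow, 3296, 3352 and 3829.7 at 12 weeks and 2106, 3808 and 1495 at 20 weeks in AIM-KO livers. In WT livers it was 841, 602 and 737 on chow, 3768, 4568 and 2265 at 12 weeks and 4114, 2587 and 3542 at 20 weeks. In WT livers every HFD array lay above every chow array, while in AIM-KO livers the lowest array at 20 weeks lay below the highest on chow. Saa1 rose by 1.55 ± 0.30 at 12 weeks in AIM-KO livers (adjusted p = 0.0016), and in WT livers by 2.23 ± 0.30 at 12 weeks (adjusted p = 0.00023), with 2.21 ± 0.30 after 20 weeks (adjusted p = 8.7e-05). At 20 weeks in AIM-KO livers the change was 0.94 ± 0.30 (adjusted p = 0.071), and without AIM-KO 20 weeks replicate 3, the lowest of the 3, it was 1.25 ± 0.31 (adjusted p = 0.026). It was also called with array weights (1.40, adjusted p = 0.0024) and with probe sets averaged (1.07, adjusted p = 0.048). The Xist term made it 1.50 ± 0.54 (adjusted p = 0.19).

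Copies this alike can share probes. The Saa1 values are from a probe set whose source sequence RefSeq assigns to Saa1. The platform names a further probe set Saa1, but its source sequence is assigned to Saa2, as is that of the Saa2 probe set, whose suffix Affymetrix gives to probes that may bind other transcripts. Signal of the 2 genes therefore cannot be told apart with certainty. The further probe set differed from chow by 1.81 ± 0.31 in AIM-KO and 2.63 ± 0.31 in WT livers at 12 weeks, and by 1.20 ± 0.31 in AIM-KO and 2.67 ± 0.31 in WT livers at 20 weeks, between the values of Saa1 and Saa2.

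Saa3, which macrophages and fat cells also make in mice, and Saa4, the constitutive member bound to high density lipoprotein, were called in no comparison. Saa3 intensity averaged 148 ± 44.6 on chow, 152 ± 37.7 at 12 weeks and 153 ± 55.9 at 20 weeks in AIM-KO livers, against 115 ± 26.4, 175 ± 41.5 and 158 ± 42.1 in WT livers (SD, n = 3 each). Its change was 0.05 ± 0.28 in AIM-KO livers at 12 weeks (adjusted p = 0.94) and 0.60 ± 0.28 in WT livers (adjusted p = 0.26), and at 20 weeks it was 0.02 in AIM-KO and 0.45 in WT livers. Neighbouring groups overlapped all along the order of its means, although the WT arrays at 20 weeks (132.4 to 206.5) lay above those on chow (84.3 to 131.5). Saa4 averaged 3374 ± 836 on chow, 2437 ± 434 at 12 weeks and 2872 ± 286 at 20 weeks in AIM-KO livers, against 2809 ± 811, 3008 ± 1449 and 2066 ± 201 in WT livers. At 20 weeks the AIM-KO arrays of Saa4 all lay above the WT arrays. Its changes from chow ranged from -0.45 (AIM-KO, 12 weeks) to 0.04 (WT, 12 weeks). A dimmer Saa4 probe set differed from chow by -0.41 ± 0.41 in AIM-KO and -1.01 ± 0.41 in WT livers at 20 weeks. Its difference between AIM-KO and WT livers at 20 weeks was 1.26 ± 0.41 (unadjusted p = 0.007), against 0.47 ± 0.27 for the brighter one, so the 2 probe sets differ in size there but not in sign.

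Of the orosomucoid genes, which form a tandem cluster on chromosome 4, Orm2 rose with the diet and Orm1 was called in no comparison. The difference between these genes was not tested. Orm2 intensity was 137, 182 and 199 on chow, 854, 952 and 913 at 12 weeks and 384, 566 and 196 at 20 weeks in AIM-KO livers. In WT livers it was 86.6, 164 and 198 on chow, 748, 494 and 315 at 12 weeks and 533, 369 and 687 at 20 weeks. The AIM-KO arrays at 12 weeks stood above the arrays of the other 5 groups without overlap, and the AIM-KO arrays at 20 weeks reached down to the chow range. Orm2 rose by 2.39 ± 0.35 in AIM-KO livers at 12 weeks (adjusted p = 0.00015), and in WT livers by 1.76 ± 0.35 at 12 weeks (adjusted p = 0.0057), with 1.83 ± 0.35 after 20 weeks (adjusted p = 0.0018). In AIM-KO livers at 20 weeks its change was 1.02 ± 0.35 (adjusted p = 0.093), or 1.43 ± 0.34 (adjusted p = 0.021) without AIM-KO 20 weeks replicate 3. It was 1.16 ± 0.31 (adjusted p = 0.016) with array weights and 1.73 ± 0.62 (adjusted p = 0.19) with a term for high Xist.

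Orm1 intensity ran from 4533 to 5879.5 on chow, 4316 to 4698 at 12 weeks and 4611 to 5105 at 20 weeks in AIM-KO livers. In WT livers the ranges were 4466 to 5625, 4548 to 5340.1 and 4517 to 4663. All 4 diet changes of Orm1 were negative and small, from -0.24 (adjusted p = 0.14) in AIM-KO livers at 12 weeks to -0.09 in WT livers at 12 weeks. With quantile normalization the 2 AIM-KO values turned to 0.04 and 0.05. The value at 12 weeks in AIM-KO livers had an adjusted p of 0.016 with array weights and 0.034 without AIM-KO chow replicate 1. Orm3, the remaining gene of the cluster and not one of the 10, averaged 124 ± 49.4 in AIM-KO and 67.1 ± 30.7 in WT livers at 12 weeks, against 34 ± 20 in AIM-KO and 20.2 ± 9.35 in WT livers on chow, and rose by 1.89 ± 0.42 in AIM-KO livers (adjusted p = 0.0042) and 1.56 ± 0.42 in WT livers (adjusted p = 0.037). The 3 genes are close copies, and signal shared between them cannot be told apart here.

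The promoters of the other genes that rose, Lcn2 (chr2:32387690-32387989, minus strand) and Orm2 (chr4:63362199-63362498, plus strand), are printed for comparison with those of Saa1 and Saa2, from the same RefSeq table and with C/EBP matches in capitals.
Lcn2: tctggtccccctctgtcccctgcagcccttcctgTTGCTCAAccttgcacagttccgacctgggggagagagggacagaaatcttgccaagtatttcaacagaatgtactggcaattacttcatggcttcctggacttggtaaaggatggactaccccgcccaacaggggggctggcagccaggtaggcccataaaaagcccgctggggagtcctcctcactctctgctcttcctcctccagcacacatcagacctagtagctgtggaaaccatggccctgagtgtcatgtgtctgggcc
Orm2: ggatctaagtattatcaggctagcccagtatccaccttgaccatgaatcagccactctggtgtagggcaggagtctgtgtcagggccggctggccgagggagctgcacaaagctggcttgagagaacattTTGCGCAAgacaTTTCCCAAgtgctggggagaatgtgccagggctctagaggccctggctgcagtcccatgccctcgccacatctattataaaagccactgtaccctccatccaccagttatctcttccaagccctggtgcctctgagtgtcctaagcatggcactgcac
Lcn2 held 1 C/EBP match and Orm2 held 2, and neither window held a STAT3 or kappa B match. Of the 8 acute phase genes with a window in the table, 7 held a C/EBP match, among them Saa3, Saa4 and Hpx, which were called in no diet comparison. Apcs held none and was the only 1 of the 8 with a STAT3 match. A match describes the letters of a window and not a bound site.

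Haptoglobin and hemopexin, which clear haemoglobin and haem from plasma, stayed within narrow ranges. Hp intensity was 5986, 6311 and 6361 on chow, 5809, 5711 and 5592 at 12 weeks and 5776, 5821 and 6261 at 20 weeks in AIM-KO livers. In WT livers it was 5561, 7231 and 6482 on chow, 5611, 7676 and 6264 at 12 weeks and 5834, 5984 and 7702 at 20 weeks. The AIM-KO arrays at 12 weeks lay below the AIM-KO chow arrays by a small margin, and the other diet groups overlapped with their chow group. The log2 difference of Hp from chow was -0.12 ± 0.12 at 12 weeks (adjusted p = 0.56), with -0.06 ± 0.12 after 20 weeks (adjusted p = 0.84), in AIM-KO livers, and 0.02 ± 0.12 at 12 weeks and 0.01 ± 0.12 at 20 weeks in WT livers. Under quantile normalization the AIM-KO values turned to 0.15 at 12 weeks and 0.11 at 20 weeks. The 95% intervals of these 4 changes ran from -0.38 to 0.27, below the measured change of any of the 4 genes that rose. They cover the spread between arrays only. How the scaling, or the response of the array at such high intensity, bears on the size of a change is not covered.

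Hpx intensity was 7716, 7728 and 7701 on chow, 6715, 6352 and 6521 at 12 weeks and 7369, 6467 and 7596 at 20 weeks in AIM-KO livers. The WT arrays read 6639.6, 8261 and 7808 on chow, 6884, 8462 and 7024 at 12 weeks and 7341, 6869 and 9149 at 20 weeks. The 3 AIM-KO arrays on chow were nearly equal, and the AIM-KO arrays at 12 weeks and at 20 weeks all lay below them, while WT arrays of the 3 diets overlapped. The change at 12 weeks was -0.24 ± 0.11 (adjusted p = 0.17), and it was -0.11 ± 0.11 at 20 weeks in AIM-KO livers, -0.02 ± 0.11 at 12 weeks and 0.04 ± 0.11 at 20 weeks in WT livers. At 12 weeks in AIM-KO livers the Hpx value had an adjusted p of 0.042 with array weights, 0.041 with only the compared groups in the fit and 0.04 with a term for the actin ratio, and it was 0.05 with no call under quantile normalization, so its direction depends on the scaling.

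Apcs encodes a pentraxin, the main acute phase protein of that family in mice. Its intensity was 1113, 905 and 877 on chow, 1015, 869 and 1107 at 12 weeks and 1351, 1340.2 and 1196 at 20 weeks in AIM-KO livers. WT livers read 1129.7, 1045 and 1032 on chow, 1027, 1425 and 861 at 12 weeks and 1168, 1371 and 1089 at 20 weeks. The 3 AIM-KO arrays at 20 weeks lay above those at 12 weeks and on chow, while WT arrays of the 3 diets overlapped. The change from chow in AIM-KO livers was 0.05 ± 0.15 at 12 weeks and 0.43 ± 0.15 at 20 weeks (adjusted p = 0.099), against 0.02 ± 0.15 at 12 weeks and 0.17 ± 0.15 at 20 weeks in WT livers. With a term for high Xist the AIM-KO value at 20 weeks was 0.15 ± 0.26 (adjusted p = 0.85), and with array weights it was 0.49 ± 0.13 (adjusted p = 0.015).

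**Figure D3:**
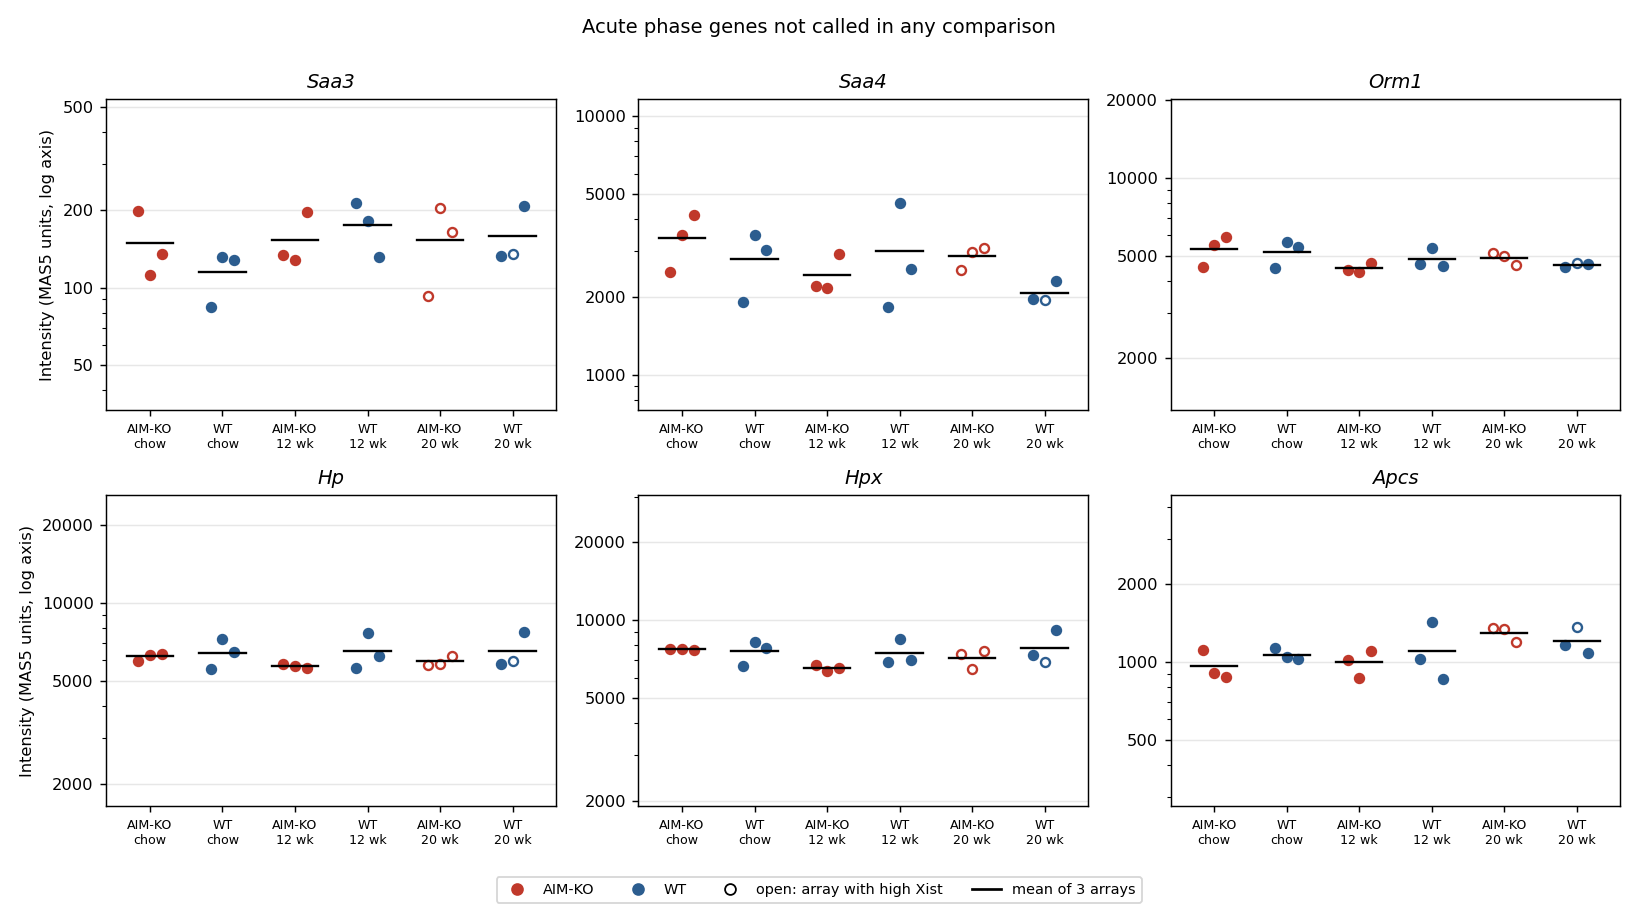
Intensity on each array (log axis with the same span in all panels) of Saa3, Saa4, Orm1, Hp, Hpx and Apcs in the 6 groups, with the mean of 3 arrays as a bar and open circles for arrays with high Xist. The highest array exceeded the lowest by 1.36-fold for Orm1, 1.39-fold for Hp, 1.44-fold for Hpx, 1.65-fold for Apcs and 2.53-fold for Saa3 and Saa4.

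Set against WT on the same diet, AIM-KO livers showed no called difference in any of the 10 genes. On chow 0 of 10 were called, with 0.0272% of all genes called, and the 1 gene with an unadjusted p under 0.05 was Saa1, 0.72 ± 0.30 (unadjusted p = 0.029, adjusted p = 0.6), where AIM-KO replicate 2 lay within the WT range and the other 2 AIM-KO arrays above it. The further probe set named Saa1 differed by 0.90 ± 0.31 on chow (limma, unadjusted p = 0.0086), for which no adjusted p is given. At 12 weeks 0 of 10 were called, with 0.0749% of all genes, and at 20 weeks 0 of 10, with 0.157% of all genes. Averaged over the 3 diets 0 of 10 were called, with 0.0272% of all genes, and the interval of the average ran from 0.06 to 1.04 for Lcn2 and from -0.26 to 0.04 for Hp. At an unadjusted p under 0.05 the counts were 1 on chow, 2 at 12 weeks, 0 at 20 weeks and 1 for the average. The shares of all genes at that unadjusted p, or without overlap between groups, are not given here. Nothing is therefore read from such counts, here or below.

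The 2 genes at 12 weeks were Lcn2 and Orm2, and their arrays did not overlap between the genotypes. Lcn2 was 1.13 ± 0.40 higher in AIM-KO livers (95% interval 0.29 to 1.97, adjusted p = 0.39) and Orm2 0.89 ± 0.35 higher (0.14 to 1.63, adjusted p = 0.46). Hpx arrays did not overlap either, with a difference of -0.19 ± 0.11 (adjusted p = 0.71). For Saa1 and Saa2 the differences at 12 weeks were 0.04 ± 0.30 and 0.19 ± 0.42. At 20 weeks the differences were -0.55 ± 0.30 for Saa1, -0.49 ± 0.42 for Saa2, -0.55 ± 0.35 for Orm2 and 0.02 ± 0.40 for Lcn2, with adjusted p from 0.45 to 0.99. The Xist term gave -0.18, 0.12, -0.08 and -0.08 in the same order. An adjusted p above the threshold does not show that the genotypes were alike, and the intervals allow a difference of up to 1.97 for Lcn2 at 12 weeks.

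**Figure D4:**
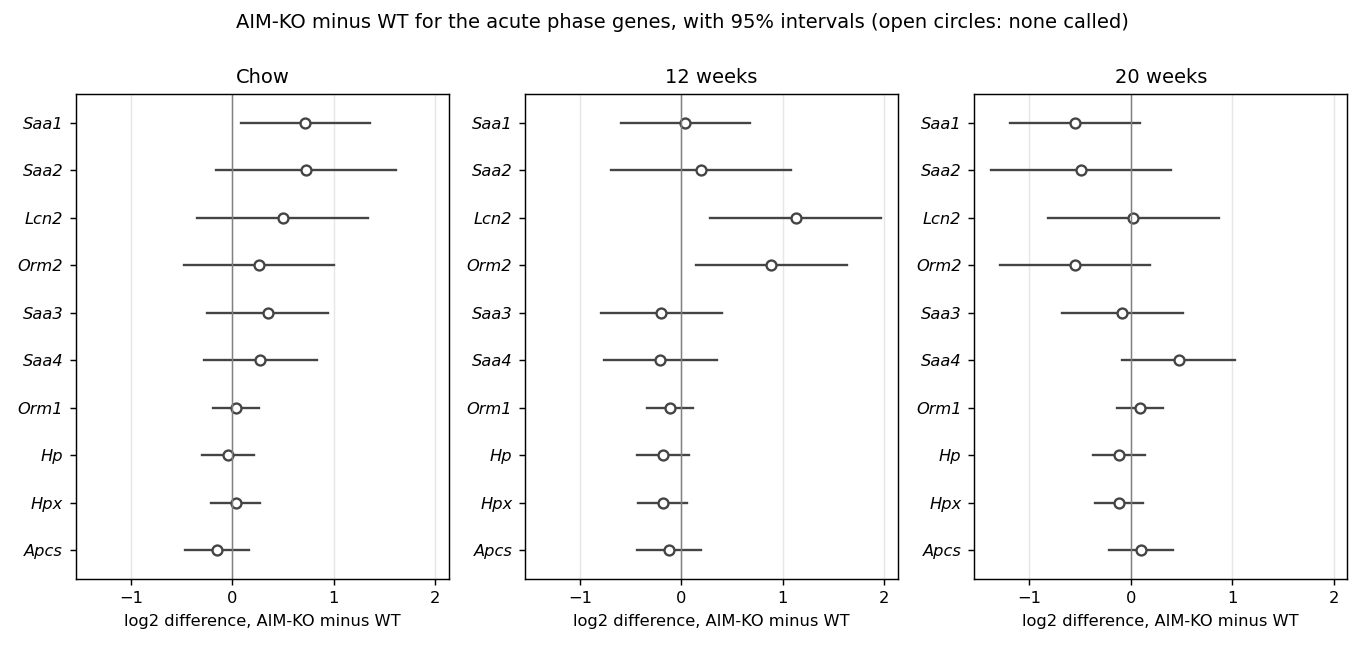
Log2 difference, AIM-KO minus WT, of the 10 acute phase genes on chow, at 12 weeks and at 20 weeks of HFD, with 95% intervals. The intervals of Saa1 on chow and of Lcn2 and Orm2 at 12 weeks lie to the right of 0, at 0.72, 1.13 and 0.89, and none of the 30 differences was called.

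Whether the diet effect itself differed between genotypes was tested as an interaction. At 12 weeks 0 of 10 were called, with 0.00681% of all genes called, 0 had an unadjusted p under 0.05, and the differences between the AIM-KO and WT diet effects ranged from -0.68 for Saa1 to 0.63 for Lcn2. At 20 weeks 0 of 10 were called, with 0% of all genes, and 1 had an unadjusted p under 0.05. That was Saa1, whose change from chow was 0.94 in AIM-KO and 2.21 in WT livers, a difference of -1.27 ± 0.43 (unadjusted p = 0.0083, adjusted p = 0.35), and -0.90 ± 0.52 with a term for high Xist. The further probe set named Saa1 had a difference of -1.47 ± 0.43 (limma, unadjusted p = 0.0031), for which no adjusted p is given. The corresponding differences were -1.21 ± 0.60 for Saa2 and -0.81 ± 0.50 for Orm2, and with a term for high Xist they were -0.61 ± 0.71 for Saa2 and -0.34 ± 0.60 for Orm2.

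Between 20 and 12 weeks on the diet, 0 of 10 were called in WT livers with limma, and 0 had an unadjusted p under 0.05, with 0.0204% of all genes. The WT changes were -0.02 for Saa1, -0.07 for Saa2, 0.03 for Lcn2 and 0.07 for Orm2. In AIM-KO livers the changes were -0.61 ± 0.30 for Saa1, -0.75 ± 0.42 for Saa2, -1.07 ± 0.40 for Lcn2 and -1.36 ± 0.35 for Orm2, and 1 of 10, Orm2, was called (adjusted p = 0.041), with 3.44% of all genes called in either direction. The call is close to the threshold and was kept in 17 of 30 alternatives. It was lost without any 1 of 8 arrays, which were AIM-KO chow replicate 2, WT chow replicate 2, AIM-KO 12 weeks replicates 1, 2 and 3, AIM-KO 20 weeks replicates 1 and 3, and WT 20 weeks replicate 1. The value was -0.95 ± 0.34 (adjusted p = 0.22) without AIM-KO 20 weeks replicate 3 and -0.66 ± 0.62 (adjusted p = 0.86) with a term for high Xist. With that term the change was -0.04 ± 0.54 for Saa1, 0.16 ± 0.74 for Saa2 and -1.23 ± 0.74 for Lcn2, so the direction for Saa2 depends on it. Lcn2 arrays of AIM-KO at 20 weeks also lay below those at 12 weeks without overlap (adjusted p = 0.17).

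The 4 genes that rose kept the same lowest array in 2 of the 6 groups. WT 12 weeks replicate 3 was the lowest of its group for Saa1, Saa2, Lcn2 and Orm2, and in AIM-KO at 20 weeks replicate 3 was the lowest and replicate 2 the highest for all 4. In the other 4 groups no array was lowest for all 4 genes, and WT 20 weeks replicate 1 was lowest for Lcn2 but highest for Saa1 and Saa2. Over the 18 arrays Pearson's r of log2 values was 0.98 between Saa1 and Saa2, 0.95 between Saa2 and Lcn2 and 0.89 between Lcn2 and Orm2, and after subtracting group means it was 0.94, 0.64 and 0.46. Hp and Hpx also varied together, with r of 0.89, or 0.90 after subtracting group means, as did Saa4 and Orm1 (0.80 both ways). After subtracting group means Saa4 also had 0.79 with Hp and 0.63 with Hpx. Orm1 had 0.53 with Hp and 0.42 with Hpx, so these genes do not form separate pairs. These correlations describe 18 arrays that share array-wide intensity, and for Saa1 and Saa2 possibly probes. The pairs Hp with Saa2 (-0.13) and Hpx with Lcn2 (-0.40) did not follow each other.

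**Figure D5:**
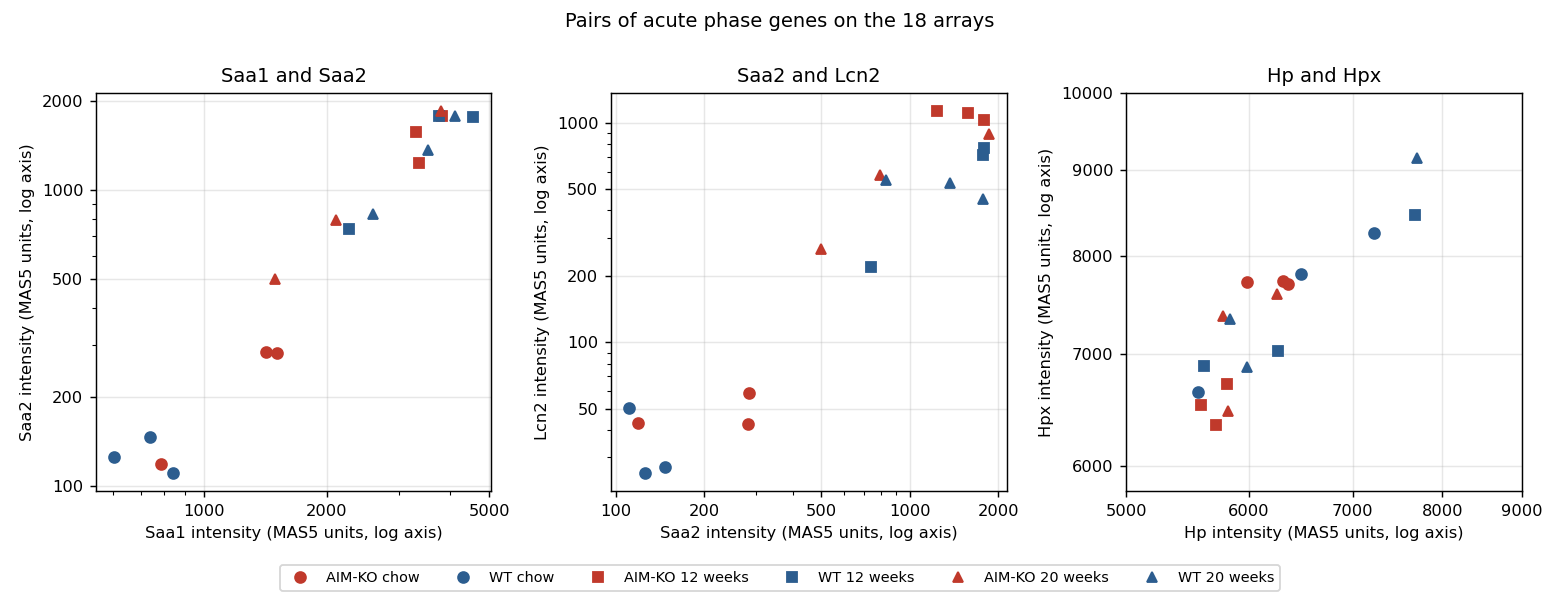
Intensities of Saa2 against Saa1, Lcn2 against Saa2 and Hpx against Hp on the 18 arrays (log axes), with AIM-KO in red, WT in blue and the diet by symbol. The first 2 pairs (r = 0.98 and 0.95) separate chow from HFD arrays, whereas Hp and Hpx (r = 0.89) vary together with the 3 diets intermixed.

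Outside the 10, the genes whose pattern over the 18 arrays was most like a given one were, for Saa1 and Saa2, Vim (vimentin, a filament protein of mesenchymal cells and leukocytes; r = 0.95 and 0.96) and the collagen gene Col3a1 (0.94 and 0.94). For Lcn2 they were Tm6sf1 (0.97) and Vim (0.96), and for Orm2 Ifi27l2a, an interferon-induced gene, and the cyclin gene Ccna2 (0.94 each). Vim averaged 505 ± 57 in AIM-KO and 356 ± 101 in WT livers at 12 weeks, against 158 ± 37.8 in AIM-KO and 124 ± 24.2 in WT livers on chow (SD, n = 3 each). Hp and Hpx were most like the apolipoprotein gene Apoc4 (0.91 and 0.94), with Acaa1b next for Hp (0.87) and Alb for Hpx (0.94). Apcs was most like Fgl1 (0.86), a hepatokine gene, and Nfkbiz (0.78), Saa4 like B2m (0.87) and Adk (0.84), Orm1 like Erap1 and Slco1b2 (0.81 each), and Saa3 like Zfp579 (0.77) and Pink1 (0.69). Group means were not subtracted for these values, so they include the differences between chow and HFD groups. No gene is read from them as a particular partner.

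Lists of other genes of the response are read against the shares of all genes called. These were 11.4% higher and 6.78% lower in AIM-KO and 3.52% higher and 1.63% lower in WT livers at 12 weeks. They were 4.29% higher and 2.67% lower in AIM-KO and 8.72% higher and 5.77% lower in WT livers at 20 weeks. Nothing particular to a list is read from its count. With a term for high Xist, a setting added for these lists after seeing the data, 1 of the 13 pathway and marker genes called at 20 weeks in AIM-KO livers (Fetub) and 25 of 32 in WT livers kept their calls. The sign stayed the same for 12 of the 13 and for 32 of the 32. Of the 12 that lost the call in AIM-KO livers, 3 had a log2 change at least as large with the term, among them Il1r1 with -1.44 against -0.95 without it. In that fit 1.34% of all genes were called in AIM-KO and 16.8% in WT livers.

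Of 11 cytokine ligand genes that drive the response, 10 were on the array and 7 were tested, and Il6, Tnf and Il11 did not pass the filter on dim probe sets. Of the 7, 0 were called at 12 weeks in AIM-KO livers, and 1, Ctf1 (cardiotrophin 1, a cytokine of the interleukin 6 family), rose by 0.69 ± 0.16 in WT livers (adjusted p = 0.015). Of the 7, 0 were called at 20 weeks in either genotype with limma, where 0 in AIM-KO and 1 in WT livers had an unadjusted p under 0.05. Il1b, named after its values were seen, averaged 53.8 ± 4.11 in AIM-KO and 47.2 ± 15.4 in WT livers at 12 weeks, against 34.4 ± 6.96 in AIM-KO and 55.5 ± 27.8 in WT livers on chow.

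Of 17 receptor and transducer genes tested, 3 rose and 2 fell at 12 weeks in AIM-KO livers and 1 rose and 1 fell in WT livers. After 20 weeks 0 rose and 2 fell in AIM-KO livers and 4 rose and 2 fell in WT livers. Osmr, a receptor chain for oncostatin M, rose by 1.18 ± 0.25 in AIM-KO livers at 12 weeks (adjusted p = 0.0029) and 1.38 ± 0.25 in WT livers at 20 weeks (adjusted p = 0.0011). Il1rn, the interleukin 1 receptor antagonist, rose by 1.99 ± 0.36 in AIM-KO livers and 1.37 ± 0.36 in WT livers at 12 weeks, and by 1.24 ± 0.36 in WT livers at 20 weeks. Lifr, the receptor of leukaemia inhibitory factor, fell in all 4 comparisons, by 1.08 in AIM-KO and 0.82 in WT livers at 12 weeks and by 0.76 in AIM-KO and 1.07 in WT livers at 20 weeks. With high Xist in the fit, Lifr at 20 weeks in AIM-KO livers was -1.01 ± 0.34 (adjusted p = 0.16) and Il1rn in WT livers 1.10 ± 0.41 (adjusted p = 0.074). Stat3 and Socs3, the transducer and the feedback inhibitor of interleukin 6 signalling and also named after their values were seen, were called in none of the 4. Stat3 averaged 382 ± 43.6 in AIM-KO and 331 ± 54.6 in WT livers at 12 weeks, against 313 ± 67.7 in AIM-KO and 356 ± 16.6 in WT livers on chow.

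Of 15 transcription factor and feedback genes, 3 rose and 0 fell at 12 weeks in AIM-KO livers and 1 rose and 0 fell in WT livers. After 20 weeks 2 rose and 0 fell in AIM-KO livers and 3 rose and 1 fell in WT livers. Tnfaip3, which encodes the NF-kappa B inhibitor A20, rose in all 4 comparisons, by 1.89 ± 0.25 in AIM-KO and 1.16 ± 0.25 in WT livers at 12 weeks and by 1.23 ± 0.25 in AIM-KO and 1.41 ± 0.25 in WT livers at 20 weeks. Relb, an NF-kappa B subunit, rose by 1.78 ± 0.45 in AIM-KO livers at 12 weeks (adjusted p = 0.0095). Cebpd, which encodes a C/EBP factor induced in the acute phase, rose by 1.50 ± 0.35 in WT livers at 20 weeks (adjusted p = 0.0077), and Nfkbiz, an atypical I-kappa B protein, by 1.38 ± 0.35 in AIM-KO livers at 20 weeks (adjusted p = 0.021). The Xist term gave AIM-KO values at 20 weeks of 0.56 ± 0.60 for Nfkbiz (adjusted p = 0.73) and 1.23 ± 0.47 for Tnfaip3 (adjusted p = 0.22).

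The list of other acute phase genes held both directions. Of 21 further positive acute phase genes, 5 rose and 6 fell at 12 weeks in AIM-KO livers and 3 rose and 1 fell in WT livers. After 20 weeks 5 rose and 0 fell in AIM-KO livers and 5 rose and 5 fell in WT livers. Cd14, the lipopolysaccharide co-receptor, rose by 2.14 ± 0.34 (adjusted p = 0.00029) in AIM-KO livers at 12 weeks, and Chil1, a chitinase-like protein, by 1.93 ± 0.43 in AIM-KO (adjusted p = 0.0096) and 1.50 ± 0.43 in WT livers (adjusted p = 0.024) at 20 weeks. Hamp2, a hepcidin gene, rose by 2.13 ± 0.42 in AIM-KO livers at 20 weeks (adjusted p = 0.0037), and Steap4, a metalloreductase, by 0.96 ± 0.27 in WT livers at 12 weeks (adjusted p = 0.049). The Xist term gave AIM-KO values at 20 weeks of 0.23 ± 0.54 for Hamp2 (adjusted p = 0.89) and 1.77 ± 0.79 for Chil1 (adjusted p = 0.32), and a WT value of 1.45 ± 0.49 for Chil1 (adjusted p = 0.053). The 6 that fell in AIM-KO livers at 12 weeks, named after their values were seen, were the fibrinogen chains Fga, Fgb and Fgg, and Hamp, Crp and Itih3, with changes from -1.44 for Hamp, the main hepcidin, to -0.34 for Crp, C-reactive protein. Itih4, Lrg1 and Lbp, secreted proteins of the same list named in the same way, were called in none of the 4 comparisons.

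Negative acute phase genes encode plasma proteins that the liver makes less of in inflammation. Of 10 tested, 0 rose and 7 fell at 12 weeks in AIM-KO livers and 0 rose and 1 fell in WT livers. After 20 weeks 0 rose and 1 fell in AIM-KO livers and 0 rose and 2 fell in WT livers. Fetub (fetuin B) fell in all 4, by 1.02 in AIM-KO and 0.93 in WT livers at 12 weeks and by 0.90 in AIM-KO and 1.42 in WT livers at 20 weeks. Ahsg (fetuin A) fell by 0.48 in AIM-KO livers at 12 weeks and by 0.53 in WT livers at 20 weeks, and Pon1 (paraoxonase 1) by 0.51 in AIM-KO livers at 12 weeks. Alb, Ttr, Apoa1 and Apoa2 are on this list and also among the hepatocyte markers below, so the counts of these lists are not independent. Quantile normalization turned the sign of Hp, Hpx and Orm1 in AIM-KO livers at 12 weeks. Values of this list under that scaling are not given here.

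Of 14 receptor and clearance genes, 3 rose and 0 fell at 12 weeks in AIM-KO livers and 1 rose and 0 fell in WT livers. After 20 weeks 1 rose and 0 fell in AIM-KO livers and 1 rose and 1 fell in WT livers. Cd36, a fatty acid transporter and scavenger receptor, rose in all 4, by 2.45 ± 0.35 in AIM-KO and 2.58 ± 0.35 in WT livers at 12 weeks and by 2.33 ± 0.35 in AIM-KO and 2.87 ± 0.35 in WT livers at 20 weeks. With high Xist in the fit, Cd36 at 20 weeks in AIM-KO livers was 2.10 ± 0.65 (adjusted p = 0.13). Tlr2 rose by 1.27 ± 0.26 and Fpr2, a formyl peptide receptor that binds serum amyloid A, by 0.92 ± 0.30 in AIM-KO livers at 12 weeks.

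Markers of leukocytes were set beside these genes because neutrophils store lipocalin 2 and macrophages can make serum amyloid A. Of 10 macrophage markers tested, 8 rose at 12 weeks in AIM-KO livers and 2 in WT livers. After 20 weeks 2 rose in AIM-KO livers and 9 in WT livers. Their summed intensity ranged from 3316.3 to 3640.4 in AIM-KO and from 2016.5 to 3136.9 in WT livers at 12 weeks, from 1883.1 to 2514.1 in AIM-KO and from 3138.5 to 3482.9 in WT livers at 20 weeks, and on chow from 1572.3 to 1851.4 in AIM-KO and from 1775.7 to 1963.4 in WT livers. The lowest sums at 12 weeks in WT and at 20 weeks in AIM-KO livers were those of replicate 3 in each, the same 2 arrays that were lowest for Saa1, Saa2, Lcn2 and Orm2. Those 2 arrays also had the lowest neutrophil sums of their groups. In AIM-KO at 20 weeks the margin was small, 246.2 against 256.6 and 273.4. In WT at 12 weeks the sum was 162, against 250.1 and 438.2. Csf1r and Lyz2, the brightest of the macrophage markers, weighed most in the macrophage sums. WT at 20 weeks differed, where replicate 2 had the highest macrophage sum (3482.9) and the highest neutrophil sum (418.9). That array was the highest of its group for Lcn2 but the lowest for Saa1, Saa2 and Orm2. With high Xist in the fit, 0 macrophage markers were called at 20 weeks in AIM-KO livers and 5 in WT livers, though the log2 changes did not all shrink. Mmp12 (macrophage elastase) in AIM-KO livers was 2.89 ± 0.76 (adjusted p = 0.069), against 2.05 without the term. In WT livers Itgax was 1.41, against 1.36 without it, and Adgre1 0.56, against 0.60. The part of macrophages in the rise of the 4 genes was not tested.

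Of 10 neutrophil markers tested, 0 were called in any of the 4 diet comparisons with limma, while 3 in AIM-KO and 2 in WT livers had an unadjusted p under 0.05 at 12 weeks, and 3 in AIM-KO and 2 in WT livers at 20 weeks. The nearest to the threshold was Mmp9 (matrix metalloproteinase 9), a protease stored in neutrophil granules. At 20 weeks it had values of opposite sign, 1.54 ± 0.57 in AIM-KO livers (adjusted p = 0.12) and -1.71 ± 0.57 in WT livers (adjusted p = 0.0502). Mmp9 read 1.6 to 2.3 on chow and 6.2 to 22.3 at 20 weeks in AIM-KO livers. In WT livers it read 8.8 to 17.9 on chow and 0.5 to 3.6 at 20 weeks. The median intensity of the arrays was 15 to 21.1, so these values lie near the floor and no change of neutrophils is read from them. The nearest in AIM-KO livers was S100a9, a calprotectin subunit, with 1.45 ± 0.51 at 12 weeks (adjusted p = 0.055), then 1.65 ± 0.51 after 20 weeks (adjusted p = 0.058). Their summed intensity, over 11 markers on the array, ranged from 219.4 to 228.8 in AIM-KO and from 162 to 438.2 in WT livers at 12 weeks, from 246.2 to 273.4 in AIM-KO and from 174.8 to 418.9 in WT livers at 20 weeks, and on chow from 120.4 to 152.8 in AIM-KO and from 158.3 to 235.3 in WT livers. Of the defining markers, Mpo (myeloperoxidase) read 1.3 to 27.9 and Elane (neutrophil elastase) 0.5 to 32.9 over the 18 arrays, and Camp did not pass the filter on dim probe sets. The part of neutrophils in the rise of Lcn2 was not tested. Of 11 hepatocyte markers, 0 rose and 7 fell at 12 weeks in AIM-KO livers and 1 fell in WT livers, and 1 fell at 20 weeks in each genotype. Alb, Ttr, Apoa1 and Apoa2 among them are also counted with the negative acute phase genes above. The sums of the hepatocyte markers ran from 53907.2 to 59307.5 in AIM-KO livers at 12 weeks against 75344.9 to 81161.2 in AIM-KO livers on chow. Of 5 Kupffer cell markers 1 rose, in AIM-KO livers at 12 weeks, and of 4 cholangiocyte and 4 lymphocyte markers 0 were called in the 4 diet comparisons, with at most 1 of 4 at an unadjusted p under 0.05. With high Xist in the fit, 1 lymphocyte marker gained a call at 20 weeks in AIM-KO livers, Cd8a with 2.40 ± 0.51 (adjusted p = 0.027), against 0.16 without the term. In WT livers 1 Kupffer cell marker did, Cd163 with -2.38 ± 0.65 (adjusted p = 0.017), against -1.49 without it. The term is set within WT at 20 weeks, where Cd8a read 3.4 to 31.5 and Cd163 13.4 to 230.8. In AIM-KO livers Cd8a itself read 26 to 27.1 on chow and 29.5 to 30.9 at 20 weeks. Neither gained call is read as a change of these cells. Adipocyte markers read low, with Adipoq (adiponectin) at 0.8 to 8.9 and Lep (leptin) at 0.4 to 9.6.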

How the data were processed

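Liver RNA of 18 samples was hybridised to 1 array each. RNA was extracted with Trizol and labelled as biotinylated cRNA, per the labels' protocols. The deposited intensity values were made by the authors with MAS5, per the submitters' processing notes, in a version not given in the sources used here. On every array the mean intensity after trimming 2% at each end was close to 100, a scaling read from the values. Which genome build the platform's gene names rest on was not stated.

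Of 45101 probe sets, 64 were controls, 34945 named 1 gene, 932 several and 9160 none. Probe sets above the 40th percentile on at least 3 arrays, naming 1 gene, were kept (26668), and the brightest by mean stood for each of 14691 genes. Intensities were transformed as log2(intensity + 3.3), the offset being the 20th percentile of all values. Only 42 values were 0. No further scaling was applied. A limma 3.58.1 model in R 4.3.3 was fitted to all 6 groups with a variance trend, and p-values were Benjamini-Hochberg adjusted over all genes, with a threshold of 0.05. The code was tested on simulated data. Precision is limited by having 3 arrays a group (median SE of a difference 0.22).

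The 10 genes, the gene lists and the tests were chosen with earlier results of these data known. Named genes were the 10, Cd5l, up to 3 called genes with the largest change per list and comparison, defining cell markers, and the 2 most correlated genes for each of the 10. Alternatives changed the offset, scaling, dim filter, probe set rule, variance model, array weights and samples fitted, added terms for replicate number, Xist or actin ratio, and left out each array. The Xist term for the pathway and marker lists was added after seeing the data. Deviations of same-numbered arrays of different groups correlated weakly: 5 of 45 pairs had a correlation over 0.1 (lowest -0.09, highest 0.23). In most pairs checked, however, the value was above those with other-numbered arrays. At 20 weeks AIM-KO replicate 3 had 0.23 with WT replicate 3 and -0.15 to -0.10 with the other WT arrays. The reverse was seen for AIM-KO replicate 2 on chow, with -0.01 for replicate 2 at 12 weeks and 0.00 to 0.01 for the others. The labels do not say whether replicate number stands for a batch. Promoter windows came from RefSeq, GRCm38.p6.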

Additional observations from a re-analysis of the deposited data

How the results depend on the processing

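Of the 15 called changes of the 10 genes, 13 kept their direction and call in all 30 alternatives, 18 of which left out 1 array. Saa2 at 20 weeks in AIM-KO livers kept it in 29 and Orm2 between 20 and 12 weeks in AIM-KO livers in 17. No result reversed with a call. For 20 weeks against chow in AIM-KO livers the count of genes called was 2, but 5 with array weights, 3 with probe sets averaged per gene and 1 with a term for high Xist, and leaving out 1 array gave 2 to 4. The highest, 4, came without AIM-KO 20 weeks replicate 3. For 20 weeks against 12 weeks in AIM-KO livers the count was 1, but 0 with no dim filter, with probe sets averaged per gene, without the variance trend, with a term for high Xist and with a term for the actin ratio, and 2 with array weights or only the compared groups fitted. Leaving out 1 array gave 0 to 1 there. The cause was not tested. With the replicate block, the counts stayed at 4 in AIM-KO and 4 in WT livers at 12 weeks, 2 in AIM-KO and 4 in WT livers at 20 weeks, and 1 in AIM-KO and 0 in WT livers between 20 and 12 weeks.

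The share of all genes called moved more. Over the alternatives it ran from 11.6% to 29% in AIM-KO and from 2.28% to 8.96% in WT livers at 12 weeks, from 1.34% to 13.7% in AIM-KO and from 9.35% to 21.5% in WT livers at 20 weeks, and from 0.034% to 11.3% between 20 and 12 weeks in AIM-KO livers. For AIM-KO against WT it reached 0.0613% on chow, 0.708% at 12 weeks and 6.45% at 20 weeks. Among 105 results with no call, 6 gained one, in 14 fits. With a term for high Xist, added after seeing the data for the other genes of the response, Serpina3n at 20 weeks in AIM-KO livers had a value of -0.0917, against a called 0.82 without it. Quantile normalization turned the sign of small AIM-KO values, giving 0.15 for Hp at 12 weeks. A term for the actin ratio turned the sign of small differences between AIM-KO and WT livers at 20 weeks. These went from -0.12 to 0.07 for Hp, from -0.12 to 0.08 for Hpx and from -0.08 to 0.31 for Saa3, with no call. With 3 arrays a group, small changes of Hp, Hpx, Orm1 and Saa4 are not resolved.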
